A study of Mus musculus with 18 samples.

Results

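Among the small RNA rows counted in these brain cell fractions, 8 carry a gene name that starts with Rnu, the prefix given in the mouse to genes of uridine-rich small nuclear RNAs (snRNAs), once the U1 genes Rnu1a and Rnu1b are set aside. The rule took every such row with at least 1 count, which gave 8 of the 86922 rows with a count, and added rows of the same snRNA kind together. Each kind turned out to hold 1 row, so a kind and a row are the same thing here: U11, U12, U2, U5, U6, U7, U3 and U73. No row named for U4atac or U6atac was among them. The counts came from sequencing of small RNA in astrocyte, microglia and neuron fractions of the brains of 10-month-old mice on a C57BL/6 background. In KIN mice both alleles of Atxn2 carry the CAG100 knock-in, an expanded CAG repeat that lengthens the polyglutamine stretch of ataxin-2. WT mice were littermates of the same sex from heterozygous matings, and neither genotype was treated. There were 18 libraries, 3 in each of 6 groups (astrocytes, microglia and neurons, each WT and KIN), and all 3 fractions were taken one after another from a brain by magnetic sorting: microglia on CD11b, astrocytes on ACSA-2, and neurons as the cells left after other cells had been removed.

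An snRNA works inside a particle of proteins, and most snRNAs carry a short uridine-rich stretch, the Sm site, on which a ring of Sm proteins is assembled in the cytoplasm with the help of the SMN complex. Introns of the common kind are removed by the major spliceosome, in which U1 binds the 5′ splice site, U2 binds the branch point, and U4, U6 and U5 join later. A small class of introns is removed by the minor spliceosome, where U11 and U12, joined in one particle, recognise the 5′ splice site and the branch point, U4atac and U6atac replace U4 and U6, and U5 is shared with the major form. U7 takes no part in splicing and instead directs the cutting of replication-dependent histone pre-mRNAs at their 3′ ends. U3 and U73 are not snRNAs but C/D box small nucleolar RNAs: U3 acts in early processing of ribosomal RNA precursors, and U73 guides methylation of ribosomal RNA from an intron of a ribosomal protein gene.

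The sequences show which rows the values below belong to, and for U2 how little separates a row from its copies. They come from the GENCODE vM39 transcripts on GRCm39, the build the study also used under its other name, mm39. Capitals mark the letters of the Sm site (an A, at least 5 T and a G), which 5.64% of 905 snRNA rows, 0.264% of 1136 snoRNA rows and 0.0% of 36 scaRNA rows hold on the transcript strand, the only strand searched. In U7, capitals mark its own variant of that site, and in U73b the C box and the D box. In the U2 pair they also mark the base at which the 2 rows differ.
Rnu11-201: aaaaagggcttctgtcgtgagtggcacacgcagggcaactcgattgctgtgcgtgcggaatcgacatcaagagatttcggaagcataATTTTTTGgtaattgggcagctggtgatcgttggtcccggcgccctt
Rnu12-201: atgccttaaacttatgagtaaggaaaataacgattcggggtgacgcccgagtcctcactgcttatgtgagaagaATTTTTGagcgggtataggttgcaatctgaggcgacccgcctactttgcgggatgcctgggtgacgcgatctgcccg
Rnu7-201: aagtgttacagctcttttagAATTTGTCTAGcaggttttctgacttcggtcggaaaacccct
Rnu73b-201: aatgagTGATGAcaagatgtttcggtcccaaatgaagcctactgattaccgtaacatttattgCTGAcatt
Rnu2-10-201: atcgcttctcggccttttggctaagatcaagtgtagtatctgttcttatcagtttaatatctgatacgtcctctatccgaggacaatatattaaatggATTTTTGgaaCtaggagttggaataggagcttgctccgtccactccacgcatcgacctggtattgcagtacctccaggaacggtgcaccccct
ENSMUST00000240231: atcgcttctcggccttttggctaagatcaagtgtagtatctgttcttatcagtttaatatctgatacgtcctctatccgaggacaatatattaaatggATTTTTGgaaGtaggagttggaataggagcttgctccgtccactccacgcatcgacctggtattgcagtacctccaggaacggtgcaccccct

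Rnu11-201 (ENSMUST00000104135) is the minus-strand U11 gene at chr4:131997391-131997524, 134 nt long, and took 10148 counts over the 18 libraries. It lies inside an exon of a long noncoding RNA on the other strand, Gm28872, whose own row holds the same sequence and took 10459 counts. Rnu12-201 (ENSMUST00000083242), the U12 gene, lies on the plus strand at chr15:83033845-83033995, is 151 nt long and took 10160 counts. Rnu7-201 (ENSMUST00000158458), 62 nt long on the minus strand of chr6:124718188-124718249, took 11969 counts and lies within an exon of Grcc10. The Grcc10-201 row exceeded the U7 row by 0 to 6 counts in each library, with 5 of 18 libraries equal, so that reads of U7 and of this Grcc10 transcript cannot be told apart. Rnu5g-201 (ENSMUST00000093721), a U5 gene in an intron of Parp16, took 167443 counts. Rnu2-10-201 (ENSMUST00000084010; 191 nt; plus strand of chr11:83162324-83162514) took 47733.

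The other named rows are small nucleolar RNAs and a pseudogene. Rnu3a-202 (ENSMUST00000196710), called Snord3a in GENCODE vM39, spans 213 nt on the plus strand of chr10:40134463-40134675 and took 13338 counts, beside 13078 in a second Snord3a row, 214 nt long, that holds its whole sequence. Rnu73b-201 (ENSMUST00000082456, Snord73b) is 71 nt long, lies in an intron of Rps3a1 on the minus strand of chr3:86047925-86047995, and took 59157 counts. Rnu6-ps2-201 (ENSMUST00000178059), a U6 pseudogene of 107 nt at chr4:119385197-119385303, plus strand, took 10 counts in all and 0 to 2 in a library. It did not pass the filter of at least 5 counts in at least 2 libraries, so 7 of the 8 rows were tested. The names of 2 rows have moved since: in GENCODE vM39 the name Rnu5g belongs to the row listed here as Gm25313-201 (131607 counts), and Rnu2-10 to ENSMUST00000240231 (84927 counts).

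These 8 rows hold unequal parts of the RNA they are named for. Among rows of like sequence (at least 90% identity over at least 90% of the length, longer transcripts set aside), the named row took 96.0% of the counts for U12, 50.5% for U3, 49.2% for U11 and 35.8% for U5. It took 7.52% for U2 and 0.0237% for U6, whose 157 other rows hold 42126 counts. U7 and U73 had no other short row. A read that fits several rows equally well cannot be assigned by its sequence, and 4 U2 rows that are letter for letter the same took 84572 to 85018 counts each. A level of the Rnu row of U11, U2, U3 or U5 is therefore a level of that row and not of the whole RNA, and sums over all like rows are given beside it where they differ. With 36 columns on other scales set aside, library totals ran from 1211118 to 4316748 counts, lowest in the neuron fractions. Levels are given as counts scaled by the library total (CPM).

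Marker microRNAs, read as the summed CPM of short lists, matched the label in microglia, where the 3 myeloid microRNAs stood at 2835 to 3389 CPM in WT against 10.2 to 12.6 in WT astrocytes. Both microRNAs of the miR-9 family, a mark of astrocytes and neural lineage, stood at 5835 to 9496 CPM in WT astrocytes and 82.3 to 245 in WT microglia. By the neuronal list, the fraction labelled neurons went against its label. The 3 neuronal microRNAs summed to 48.7 to 228 CPM in its WT libraries and 88.6 to 183 in its KIN libraries. Both ranges lay below the 1354 to 3151 CPM of WT astrocytes. The miR-9 family stood at 964 to 2265 CPM in WT neurons, between WT astrocytes and WT microglia. CPM is over the library total, so these sums also move with the part of a library that is microRNA. The fraction is called the neuron fraction here after its label only. These are bulk fractions, so that fewer cells of a type and less RNA per cell cannot be told apart.

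The first question was whether the Atxn2 expansion changed these RNAs within a fraction. In astrocytes U12 rose and U3 was lower without passing the test, while U11, U2, U5, U7 and U73 did not pass either. In microglia and in the neuron fraction none of the 7 kinds passed. Under the full rule (adjusted p at most 0.05 and at least a 2-fold difference) 0 of 7 kinds were called in astrocytes, where 8.19% of all 5692 tested features were. The same rule called 0 of 7 in microglia against 4.35% of features, and 0 of 7 in neurons against 0.0%. By adjusted p alone the counts were 1 of 7 in astrocytes (11.7% of features), 0 of 7 in microglia (4.76%) and 0 of 7 in neurons (0.0%). With edgeR 2, 0 and 0 of the 7 had an unadjusted p under 0.05, and DESeq2 also called 0 in each fraction. In simulated data over features of all counts, the edgeR fits recovered 24.2%, 13.0% and 2.11% of true log2 changes of 1. These shares are not those of the 7 kinds, whose counts in a library ran from 279 (U7) to 15600 (U5). A kind that did not pass is still not shown to be unchanged, least of all in neurons, where the intervals were widest.

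The astrocyte U12 row stood at 155, 160 and 135 CPM in the 3 WT libraries and at 185, 197 and 215 in the 3 KIN libraries. Every KIN library lay above every WT library. The mean went from 150 ± 13.2 to 199 ± 15.3 CPM (SD, n = 3), a log2 fold change of 0.54 ± 0.14 (SE; adjusted p = 0.0407, edgeR). U12 and U3 were the 2 of 7 kinds whose groups did not overlap, which was so for 36.7% of all features in this comparison. The U12 result, which passed by adjusted p alone, is not firm: it held in 1 of 6 fits that left out a library (without WT replicate 2). Over the 6 the log2 fold change was 0.42 to 0.61 with an adjusted p of 0.00429 to 0.143 (edgeR). When libraries were scaled on mature microRNAs instead, the log2 fold change was -0.12 beside a median of -0.84 over all features, against a median of -0.19 with the usual scaling.

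U11, which shares a particle with U12, did not pass. It stood at 174, 167 and 166 CPM in WT and 164, 172 and 181 in KIN astrocytes. The groups overlapped, and the log2 fold change was 0.16 ± 0.13 (adjusted p = 0.390). Within a library, the count of U12 over that of U11 was 0.888 ± 0.0737 in WT and 1.15 ± 0.0324 in KIN astrocytes, 1.30-fold higher, without overlap. That ratio does not depend on the library total. Its exact two-sided permutation p was 0.1, the smallest that 3 against 3 libraries allow, and 0.42 after adjustment over 63. A change of U12 different from that of U11 was thus not shown.

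U3 lay the other way in astrocytes, at 205, 203 and 182 CPM in WT and 122, 141 and 130 in KIN. All KIN libraries lay below all WT libraries. The log2 fold change was -0.45 ± 0.14, with an adjusted p of 0.0607 that misses the threshold. Summed with its second row, U3 gave -0.42 ± 0.11 and an adjusted p of 0.0365. Against U73, the other C/D box RNA, U3 counts stood at 0.223 ± 0.0147 in WT and 0.154 ± 0.0129 in KIN astrocytes. U73 itself ran from 858 to 920 CPM in WT and from 838 to 887 in KIN, with a log2 fold change of 0.08 ± 0.09.

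Markers of other cells moved together with genotype in the same astrocyte libraries. The 3 myeloid microRNAs summed to 10.2 to 12.6 CPM in WT and 25.0 to 48.5 in KIN, and both oligodendrocyte microRNAs to 830 to 1496 in WT and 1510 to 2148 in KIN, in each case without overlap. None of these 5 markers was at 0 in a group. Their part in the U12, U3 and U2 results was not tested.

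The plot of levels by library shows the 7 tested kinds in all 6 groups.

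**Figure D1:**
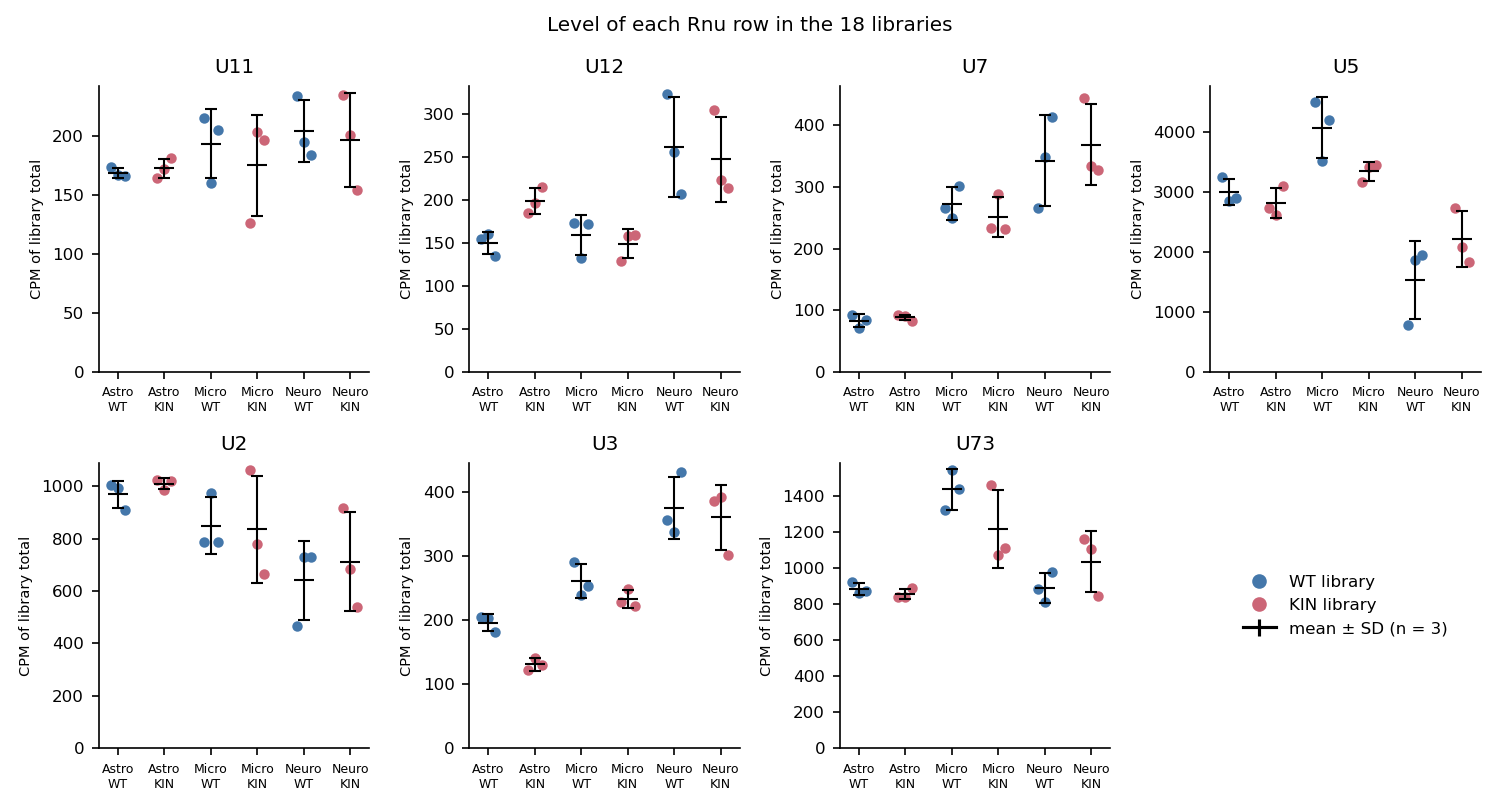
CPM of the library total (y axis, linear from 0) for U11, U12, U7, U5, U2, U3 and U73 in the 6 groups (x axis); points are libraries, bars the mean ± SD of 3. In astrocytes the KIN points of U12 (185 to 215 CPM) lie above the WT points and those of U3 (122 to 141 CPM) below, and U7 is at 71.6 to 92.2 CPM in astrocytes against 232 CPM or more in the other fractions.

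In microglia U5 showed the one difference without overlap, at 4492, 3509 and 4191 CPM in WT and 3153, 3417 and 3446 in KIN. After scaling in the fit it came to a log2 fold change of -0.05 ± 0.16 (adjusted p = 0.899). One of 7 kinds without overlap stands against 26.6% of all features there. The other 6 kinds overlapped, with log2 fold changes of -0.01 (U73) to 0.20 (U2). In the neuron fraction 0 of 7 kinds were free of overlap, against 10.3% of features. The largest fitted value there was U5, at 784, 1856 and 1945 CPM in WT and 2733, 2079 and 1822 in KIN, with a log2 fold change of 0.55 ± 0.32 (adjusted p = 0.917). The first WT neuron library, the shallowest of all, was the low one.

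**Figure D2:**
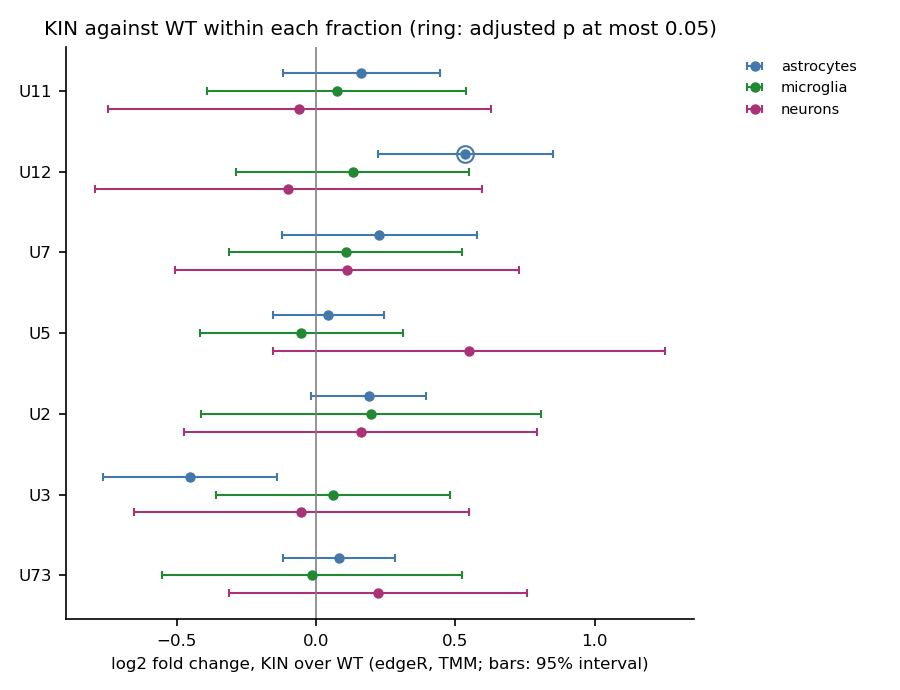
Log2 fold change of KIN over WT (x axis) with its 95% interval for each kind (y axis) in astrocytes, microglia and neurons, from edgeR; a ring marks an adjusted p of at most 0.05. U12 in astrocytes (0.54) carries the one ring, and the neuron intervals are the widest.

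Whether the KIN effect differed between fractions was tested as an interaction. None of the 7 kinds was called for microglia minus astrocytes (0.312% of features were) or for neurons minus astrocytes (0.0%). The lowest p in the first was that of U3, a log2 difference of 0.52 ± 0.25 (adjusted p = 0.501, edgeR). In the second it was U12, at -0.74 ± 0.38 (adjusted p = 0.588). The astrocyte changes of U12 and U3 were thus not shown to differ from those in the other fractions.

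Other U2 rows of like sequence were set beside the single Rnu2-10-201 row. That row did not pass in astrocytes, at 1006, 992 and 910 CPM in WT and 1022, 985 and 1021 in KIN (log2 fold change 0.19 ± 0.09, adjusted p = 0.178). Summed over all 14 like rows, a sum chosen after the data were seen, U2 rose in astrocytes with a log2 fold change of 0.40 ± 0.08 (adjusted p = 0.0159, edgeR). Values of this sum and of the single rows below are from the usual scaling with every library in the fit. For the sum, other scalings and fits without a library were not made, so it was not tested as U12 was. The rows were divided by a single base, position 109 counted from 1 at the 5′ end, 4 bases past the Sm site. This division was also chosen after the data were seen. Among the rows with at least 0.5% of U2 counts, 5 share the base of Rnu2-10-201 there, and the other 6 carry C109G. The 4 identical C109G rows, ENSMUST00000240231 among them, cannot be told apart by sequence and so count as 1 measurement. They rose by log2 values of 0.49 to 0.52 with adjusted p of 0.0156 to 0.0174 (edgeR). ENSMUST00000239995, which also differs at position 170, rose by 0.51 (adjusted p = 0.0158, edgeR). Gm25813-201, the sixth, gave 0.19 ± 0.19 and did not pass (adjusted p = 0.498), so a rise was not shown for every C109G row. Of the rows without the change, Gm23472-201 gave 0.20. It is letter for letter the same as Rnu2-10-201, so the 2 also count as 1 measurement. ENSMUST00001239518 gave 0.21, and none of the rows without the change passed.

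The ratio of C109G counts to the rest needs no scaling between libraries. Reads that do not cover position 109 cannot be placed by that base. The ratio, and the share of a row, can therefore also move with the part of U2 that was read, which was not tested. It was 2.14, 2.21 and 2.16 in the WT astrocytes and 2.66, 2.65 and 2.73 in the KIN astrocytes. The 2 genotypes did not overlap, and the ratio was 1.24-fold higher in KIN. The exact two-sided p was 0.1 (0.15 adjusted over 9 comparisons), the smallest possible. Rnu2-10-201 itself went from 7.76% ± 0.24 to 6.67% ± 0.10 of all U2 counts. In microglia the ratio ran the other way with overlap, 2.51 ± 0.294 in WT and 2.20 ± 0.205 in KIN (p = 0.3, exact permutation test), and in the neuron fraction it was 1.58 ± 0.109 and 1.55 ± 0.194 (p = 0.9, exact permutation test). The neuron fraction held the lowest ratios, from 1.37 to 1.76 in its 6 libraries, and did not overlap with astrocytes or microglia of either genotype.

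The minor-to-major ratio of each library, U11 plus U12 over U2 plus U6, was measured to ask whether the balance of the spliceosomes moved. In astrocytes it was 0.329 ± 0.00248 in WT and 0.368 ± 0.0239 in KIN, without overlap, a log2 difference of 0.16 (exact p = 0.1). With all rows of like sequence the same ratio was 0.0379 ± 0.0022 in WT and 0.0346 ± 0.00134 in KIN, a log2 difference of -0.13 with overlap (exact p = 0.2). These sums also add rows to U11 and U12. With like rows of the snRNA type only, the log2 difference was 0.15 without overlap (exact p = 0.1), so the direction depended on which rows were counted. In microglia the Rnu rows gave 0.424 ± 0.108 in WT and 0.413 ± 0.154 in KIN (exact p = 0.8). In the neuron fraction they gave 0.784 ± 0.359 and 0.631 ± 0.0485 (exact p = 0.9), where the first WT library stood at 1.195 and the others at 0.619 and 0.537.

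**Figure D3:**
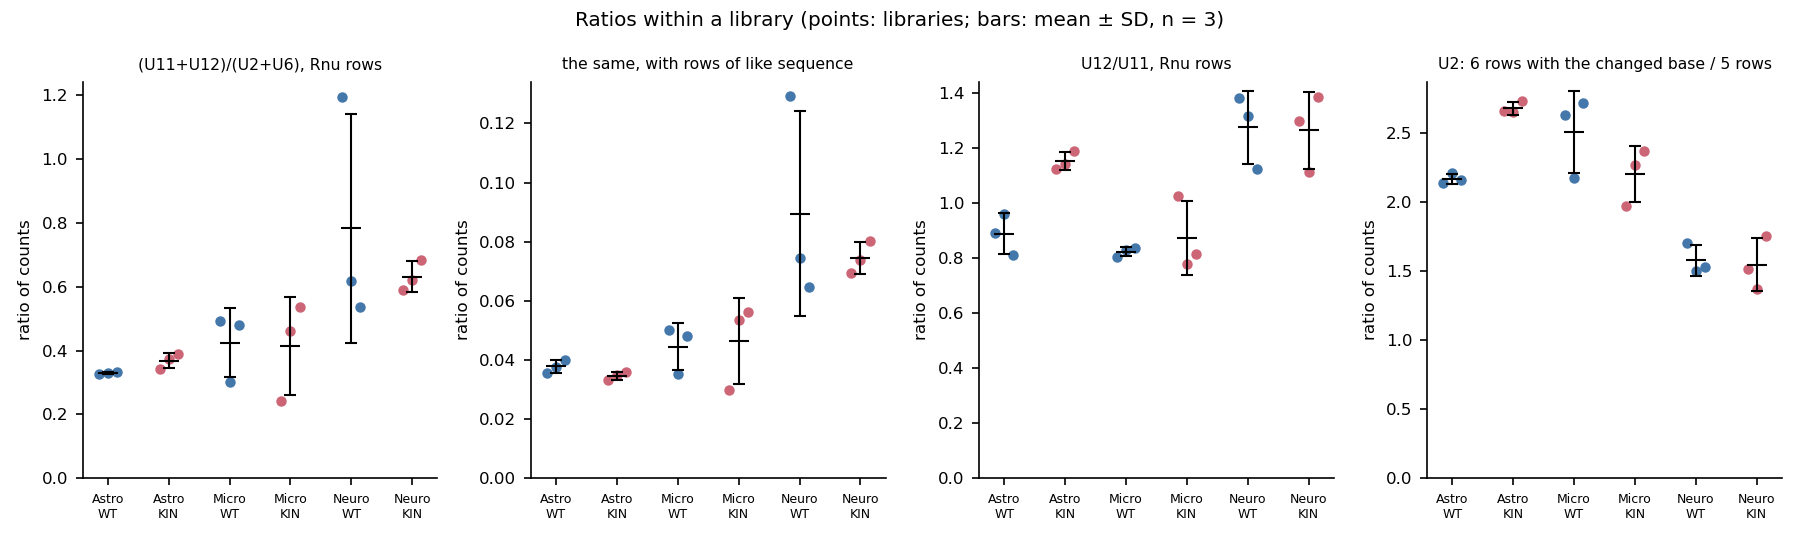
Ratios of counts within a library in 4 panels (y axes, linear from 0) in the 6 groups (x axis): minor to major by Rnu rows, the same with rows of like sequence, U12 over U11, and the 6 U2 rows with the changed base at position 109 over the 5 others; blue points are WT and red points KIN libraries, bars the mean ± SD of 3. KIN astrocytes lie above WT astrocytes in every panel but that with rows of like sequence, where they lie lower with overlap.

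Added together, the 8 rows made up a small part of a library: 0.545% ± 0.030 in WT and 0.527% ± 0.030 in KIN astrocytes (exact p = 0.5). In microglia the share was 0.724% ± 0.038 in WT and 0.620% ± 0.018 in KIN, with every KIN library below every WT library (exact p = 0.1). Over noncoding counts alone the groups overlapped, at 0.986% ± 0.055 in WT and 0.931% ± 0.030 in KIN (exact p = 0.3). Markers of other cells also separated the genotypes in these microglia libraries: the miR-9 family was at 82.3 to 245 CPM in WT and 59.1 to 68.6 in KIN, and the neuronal list at 60.7 to 159 and 47.0 to 55.1. The oligodendrocyte list was at 19.3 to 21.5 CPM in WT and 22.6 to 32.7 in KIN, the mural list at 145 to 202 and 59.4 to 136, and the erythroid list at 17.3 to 22.2 and 28.6 to 131, with 1 of 3 erythroid markers at 0 in WT. Their part in the share was not tested. In the neuron fraction it was 0.424% ± 0.083 and 0.513% ± 0.099 (exact p = 0.4). Over the 21 pairs of tested kinds in each fraction, the ratio of counts was free of overlap between genotypes for 11 pairs in astrocytes, 1 in microglia and 3 in neurons, where 36.7%, 26.6% and 10.3% of all features were free of overlap in CPM. In astrocytes 5 of the 11 pairs held U12 and 6 held U3, with the pair of both counted in each. U12 over U3 was the widest, 1.99-fold higher in KIN. Each had an exact p of 0.1, and 0.42 after adjustment over 63.

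The second question was how the fractions differ, asked within WT and within KIN. Comparisons of the same genotype share libraries, so they are not independent of each other. The comparison of microglia with astrocytes called 1 of 7 kinds in WT (31.5% of features) and 1 of 7 in KIN (34.4%), in both cases U7. Neurons against astrocytes called 2 of 7 in WT (28.7% of features) and 2 of 7 in KIN (46.2%). Neurons against microglia called 1 of 7 in WT (28.0%) and 1 of 7 in KIN (53.0%). By adjusted p alone the counts were 3 of 7 in WT and 4 of 7 in KIN for microglia against astrocytes (34.5% and 42.2% of features). They were 2 and 4 of 7 for neurons against astrocytes (29.4% and 54.9%) and 2 and 3 of 7 for neurons against microglia (28.2% and 57.2%). Under the full rule the share of kinds called was below the background in all 6 comparisons, and by adjusted p alone it lay on both sides of it.

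U7 was the kind with the widest gap between fractions. It stood at 92.2, 71.6 and 84.7 CPM in WT astrocytes, 266, 250 and 302 in WT microglia, and 266, 348 and 414 in WT neurons. KIN libraries showed the same order, at 91.9, 90.02 and 82.8 in astrocytes, 234, 290 and 232 in microglia, and 445, 334 and 328 in neurons. No astrocyte library came near a library of the other fractions. Microglia exceeded astrocytes by a log2 fold change of 1.84 ± 0.22 in WT (adjusted p = 0.000114) and 1.60 ± 0.16 in KIN (adjusted p = 2.91e-05). Neurons exceeded astrocytes by 1.85 ± 0.30 in WT (adjusted p = 0.00409) and 1.81 ± 0.20 in KIN (adjusted p = 5.48e-10). The direction was the same under every scaling tried, but in WT the neuron value was 1.16 and no longer passed (adjusted p = 0.0762) when libraries were scaled on other snRNA rows. Between neurons and microglia the U7 difference was 0.15 ± 0.32 in WT (95% interval -0.56 to 0.86) and 0.08 ± 0.25 in KIN (-0.44 to 0.60). U7 over U11 within a library was 0.490 ± 0.0536 in WT astrocytes, 1.42 ± 0.169 in WT microglia and 1.72 ± 0.558 in WT neurons, again without scaling between libraries.

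With the usual scaling U5, the snRNA both spliceosomes use, was ordered from microglia through astrocytes to neurons. In WT it stood at 3509 to 4492 CPM in microglia, 2842 to 3244 in astrocytes and 784 to 1945 in neurons. Neurons lay below microglia by log2 fold changes of -1.59 ± 0.35 in WT (adjusted p = 0.00843) and -1.07 ± 0.21 in KIN (adjusted p = 0.000195). They lay below astrocytes by -1.17 ± 0.34 in WT (adjusted p = 0.0351) and -0.60 ± 0.18 in KIN (adjusted p = 0.00394). The WT value passed in 2 of 6 fits that left out a library, not without WT neuron replicate 3 or any of the WT astrocyte replicates, and was -0.77 without WT neuron replicate 1. The gap of U5 in neurons turned its sign in all 4 comparisons when libraries were scaled on mature microRNAs, a scaling that moved the median of all features by up to 2.70. Microglia exceeded astrocytes by 0.55 ± 0.16 in WT (adjusted p = 0.0189) and 0.33 ± 0.12 in KIN (adjusted p = 0.0498). With the replicate number as a block the KIN value was 0.34 and did not pass (adjusted p = 0.123). It passed in 1 of 6 fits that left out a library (without microglia replicate 1), and the WT value in 3 of 6, not without astrocyte replicate 1 or 3 or microglia replicate 1. Scaled on other snRNA rows, the WT value turned to -0.089.

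**Figure D4:**
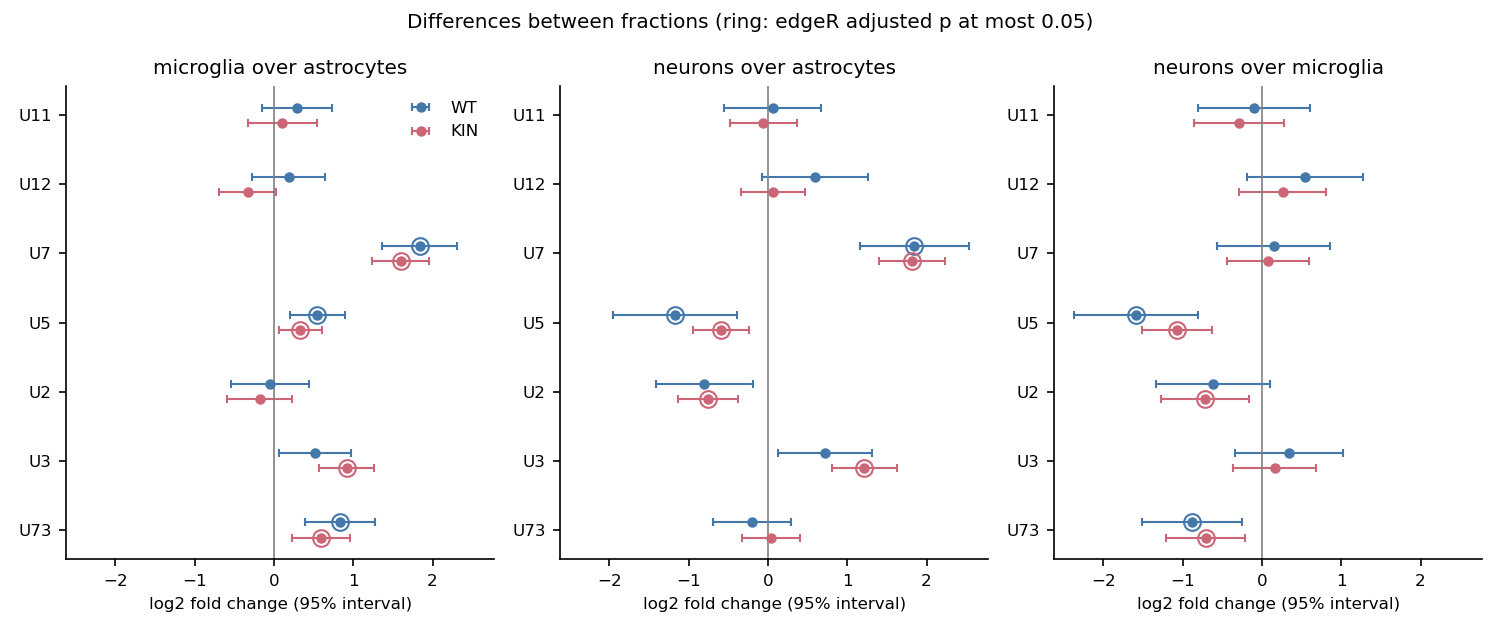
Log2 fold change between fractions (x axes) with its 95% interval for each kind (y axes), in WT and KIN, from edgeR; a ring marks an adjusted p of at most 0.05. U7 is ringed on the right in both comparisons with astrocytes (1.60 to 1.85), U5 is ringed on the left in neurons, and U11 and U12 carry no ring.

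The copies of U5 divided their counts differently in each fraction, a measure that no scaling touches. Reads that cover none of the bases at which the rows differ cannot be placed by sequence. A share can therefore also move with the part of U5 that was read, which was not tested. Rnu5g-201 made up 34.5% to 35.8% of U5 counts in the 6 astrocyte libraries, 37.3% to 38.95% in microglia and 28.6% to 31.6% in neurons. The 3 ranges do not overlap. Gm25313-201 made up 26.7% to 28.8% in astrocytes, 26.7% to 27.7% in microglia and 30.2% to 33.0% in neurons. Gm22265-201, the rarest of the 5 main rows, took 0.201% to 0.325% of U5 in astrocytes. It took 1.12% to 1.34% in microglia and 0.824% to 1.13% in neurons. Of 30 comparisons of a U5 row between fractions within a genotype, 25 had no overlap, each with an exact p of 0.1 or above and at least 0.141 after adjustment over 96. Levels in CPM of all features, a different measure, were free of overlap between fractions for 48.4% (WT) and 52.5% (KIN) of features in microglia against astrocytes. The shares were 51.9% and 61.6% in neurons against astrocytes, and 46.3% and 63.3% in neurons against microglia. Between genotypes in astrocytes, Rnu5g-201 was at 35.1% ± 0.57 in WT and 35.2% ± 0.59 in KIN, and Gm25313-201 overlapped as well. The other 3 main rows had no overlap there: Gm23143-201 went from 23.1% ± 0.36 to 24.3% ± 0.60, Gm24871-201 from 13.5% ± 0.25 to 12.8% ± 0.081 and Gm22265-201 from 0.305% ± 0.027 to 0.218% ± 0.015. Each had an exact p of 0.1. In microglia Gm22265-201 alone of the 5 had no overlap, at 1.18% ± 0.064 in WT and 1.33% ± 0.010 in KIN (exact p = 0.1), and in the neuron fraction all 5 overlapped. The 2 long transcripts, annotated as antisense, of B930036N10Rik hold a U5 copy as well and took 171557 counts, which are in none of these sums.

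**Figure D5:**
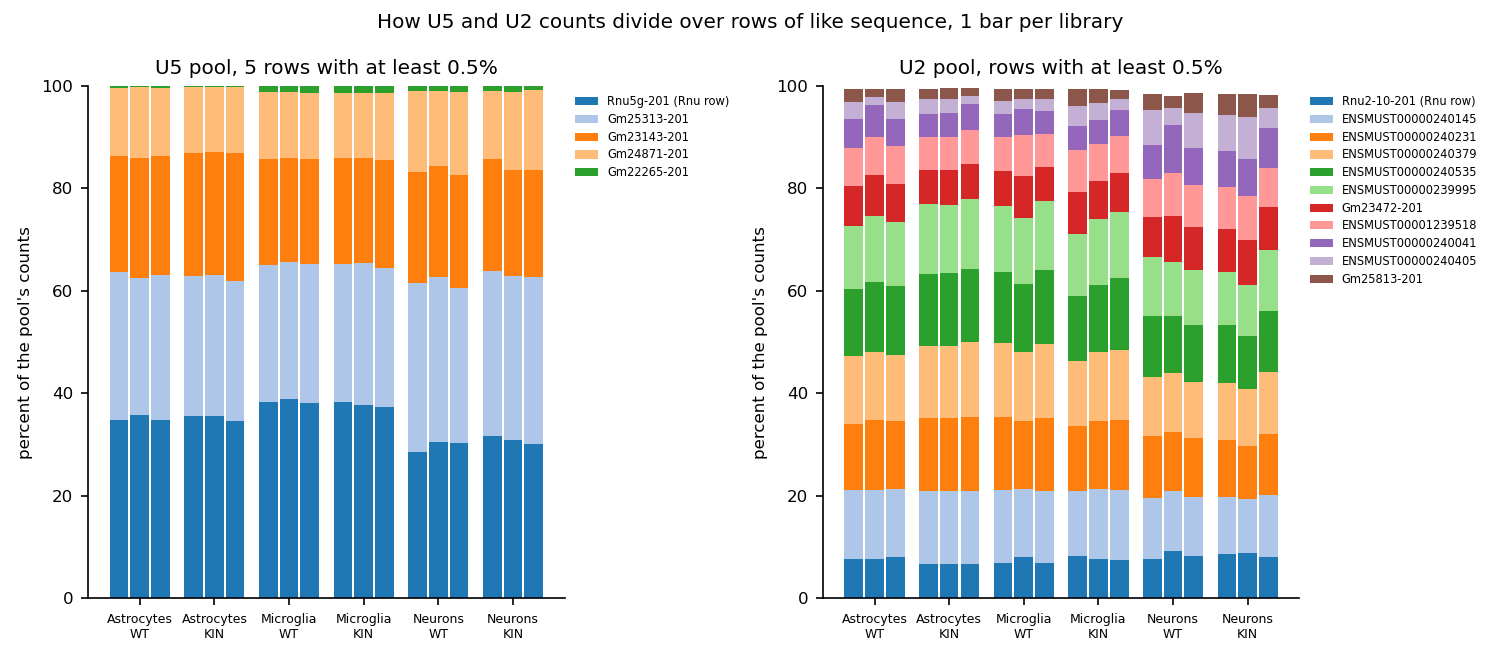
Percent of the counts of U5 (left) and U2 (right) on each row of like sequence with at least 0.5% (y axes, 0 to 100), 1 bar per library in the 6 groups (x axes). The Rnu5g-201 part is tallest in microglia (37.3% to 38.95%) and shortest in neurons (28.6% to 31.6%), and the Rnu2-10-201 part shrinks from 7.76% to 6.67% between WT and KIN astrocytes.

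U2 was lower in the neuron fraction. Rnu2-10-201 stood at 910 to 1006 CPM in WT astrocytes, 787 to 974 in WT microglia and 466 to 728 in WT neurons. Neurons lay below astrocytes by -0.75 ± 0.19 in KIN (adjusted p = 0.000815), and by -0.80 ± 0.27 in WT, which missed the threshold (adjusted p = 0.0521). The WT value passed with the replicate number as a block, at -0.84 (adjusted p = 0.0496), and over all like rows, at -0.94 ± 0.20 (adjusted p = 0.0104). Against microglia the KIN neurons lay lower by -0.72 ± 0.27 (adjusted p = 0.0249), and without the first KIN microglia library, or KIN neuron library 3 or 2, the value did not pass (-0.43, -0.43 and -0.68). The U2 values against astrocytes in WT and KIN and against microglia in KIN turned positive under the microRNA scaling, as for U5.

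Of the 2 nucleolar RNAs, with the usual scaling, U73 was highest in microglia and U3 lowest in astrocytes. U73 stood at 1320, 1544 and 1438 CPM in WT microglia against 858 to 920 in WT astrocytes and 810 to 977 in WT neurons. Microglia exceeded astrocytes by 0.83 ± 0.20 in WT (adjusted p = 0.00871) and 0.60 ± 0.16 in KIN (adjusted p = 0.0143). Neurons lay below microglia by -0.88 ± 0.28 in WT (adjusted p = 0.0412; 0.108 with the replicate block) and -0.71 ± 0.24 in KIN (adjusted p = 0.0159). Leaving out a library kept 3 of 6 U73 passes by adjusted p alone for KIN microglia against astrocytes (lost without any one astrocyte replicate). It kept 1 of 6 for WT neurons against microglia (without microglia replicate 1) and 4 of 6 in KIN (lost without neuron replicate 1 or 3). Scaled on mature microRNAs, U73 in neurons turned above microglia, at 0.82 in WT and 1.35 in KIN, and scaled on other snRNA rows the differences between microglia and astrocytes did not pass in either genotype (0.18 and 0.43). U3 ran at 122 to 141 CPM in KIN astrocytes, 223 to 249 in KIN microglia and 302 to 393 in KIN neurons. It was higher in microglia by 0.92 ± 0.16 (adjusted p = 0.00113) and in neurons by 1.22 ± 0.20 (adjusted p = 2.81e-06). In WT the same differences were 0.52 ± 0.21 (adjusted p = 0.0705; 0.0381 with the replicate block) and 0.72 ± 0.26 (adjusted p = 0.0662), and the first turned to -0.12 when scaled on other snRNA rows.

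The minor spliceosome pair passed in no comparison of fractions with the usual scaling. Scaled on mature microRNAs, U11 and U12 were both higher and passed in neurons against astrocytes and against microglia, in WT and KIN. U12 also passed in neurons against astrocytes in WT in 1 fit of all libraries and in neurons against microglia in KIN with library totals. U11 ran from 126 to 235 CPM over the 18 libraries, and its log2 differences between fractions lay between -0.29 and 0.30. U12 ran from 129 to 323 CPM, highest in the first WT neuron library, with differences from -0.33 to 0.59. U12 over U11 within a library was 1.27 ± 0.133 in WT neurons and 0.823 ± 0.0167 in WT microglia. U4atac has no Rnu-named row, but the row Gm22710-201 is Rnu4atac in GENCODE vM39 and took 1419 counts. It was higher in microglia than in astrocytes by 1.53 in WT and 1.19 in KIN, at 13 to 185 counts in a library. In microglia it stood at 37.4 to 50.4 CPM in WT and 25.9 to 33.0 in KIN, before scaling in a fit. The genotypes did not overlap there, as for 26.6% of all features, and they overlapped in the other fractions.

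Genes of the machinery around these RNAs were followed through 6 lists, which were drawn up with earlier results of these data known. Of the 15 genes of minor spliceosome proteins 1 or 2 had enough counts to be tested, among them Snrnp48, a protein of the U11 particle, at -0.03 ± 0.57 for KIN against WT in astrocytes. Of 18 Sm and LSm genes 0, 0 and 4 could be tested in astrocytes, microglia and neurons, and of 16 genes of the SMN complex and snRNP assembly 0, 1 and 4. Lists of 25 genes each for snRNA transcription and end processing and for core proteins of the U2, U4/U6 and U5 particles had 6 and 8 tested genes in astrocytes. By edgeR none of the genes of these 5 lists was called for KIN against WT in any fraction, and 2 of 15, 1 of 10 and 3 of 23 tested genes had an unadjusted p under 0.05 in astrocytes, microglia and neurons. These libraries hold fragments of messenger RNA only in small numbers, so the lists say little. Of 13 housekeeping small RNAs outside splicing 7 were tested. Rny3, a Y RNA, fell by 0.66 ± 0.11 on the log2 scale in KIN astrocytes (adjusted p = 0.0101), and Rn7s1, an RNA of the signal recognition particle, fell by 0.79 ± 0.19 in KIN microglia (adjusted p = 0.0472). Between WT microglia and WT astrocytes Rny1 was lower by -3.27 and Rny3 by -2.08. Rn7s2 (1.17), Rn7s1 (1.15) and Rmrp, the RNA of RNase MRP (1.03), were higher. In WT neurons Rn7s6, Rn7s2, Rn7s1 and Rpph1 exceeded WT astrocytes by 3.13, 2.53, 2.50 and 2.29, more than U7 did. Lower levels in astrocytes were thus not particular to U7 and U3. Ssb, Sart3 and Sf3b2 were also called higher in WT neurons than in WT astrocytes, at 40 to 158 counts in all.

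The features whose levels ran most like the members were found by Pearson correlation of log2(CPM + 1) over the 18 libraries among 3136 features, as a description. U6 had too few counts for it. The libraries share depth and fraction, and no test was made. For U11 plus U12 they were Spry2-201 (r = 0.861), Gm25514-201 (0.844), Dbpht2-202 (0.809), Gm28872-201 (0.808), which holds the U11 sequence, and ENSMUST00000246279 (0.792). For U2 they were ENSMUST00001239518 (0.993) and Gm23472-201 (0.988), both U2 copies, Gm23297-201 (0.943), Ctrc-203 (0.939) and Gm23744-201 (0.918). Gm23472-201 holds the same sequence as Rnu2-10-201.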

How the data were processed

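Small RNA was measured in 18 libraries, 3 in each of 6 groups, whose groups and replicate numbers come from the GEO labels. The authors trimmed reads with Cutadapt 4.6 (at least 20 nt kept), aligned them with Bowtie2 2.4.4 in local mode to miRNA, tRNA, piRNA, Ensembl noncoding and Ensembl cDNA sequences in turn, on mm39, and counted with HTSeq 2.0.2 without regard to strand, so reads of a gene and of its antisense partner cannot be told apart. The libraries carry molecular identifiers, but their collapsing is not stated in the sources used here, and the sampling error of counts covers counting only. The deposited values used here are whole-number counts per transcript. Columns of the authors' own comparisons (fold changes and p-values) and 36 columns per library on other scales were not used.

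Rows were summed per snRNA kind and edgeR 4.0.16 (quasi-likelihood test, TMM factors) was fitted on the whole table for each pair of groups, keeping features that reached 5 counts in 2 or more libraries, with Benjamini-Hochberg adjustment over all of them. Calls needed an adjusted p no higher than 0.05 and a 2-fold difference (log2 of 1) either way. SEs are the log2 fold change over the root of F. Shares and ratios were compared by exact two-sided permutation tests (scipy 1.17.1), which cannot go below 0.1 for 3 against 3. DESeq2 1.42.0, other scalings, no filter, 1 fit of all libraries, a replicate block, sums over like rows (blastn 2.17.0) and leaving out each library were the alternatives. The fits were tested on simulated data, with changed features drawn over all tested features whatever their counts. A true log2 change of 1 reached an adjusted p of at most 0.05 for 24.2% of them in astrocytes, 13.0% in microglia and 2.11% in neurons. For a log2 change of 2 it was 50.5%, 55.8% and 35.9%. False calls numbered 3, 3 and 6. The members, the gene lists and the tests were chosen with earlier results of these data known. Every kind was named, single rows with at least 10% of their kind or enough counts for the test were named, and for pattern likeness the 5 features with the highest r were taken. The U2 rows by base at position 109 and the sums over rows of any type were chosen after seeing the data. U11, U2, U3, U5 and U6 share reads with near-identical rows. The sequences of the U5 rows are not reported here. GENCODE vM39 matched 145508 of 146263 Ensembl rows.

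All 3 fractions came from the same 6 mice, and the labels give replicate numbers 1 to 3 in each group, but the sources do not say that a number marks 1 mouse. Same-numbered libraries deviated together in neurons against astrocytes in WT (r of 0.109 to 0.312 over features), where each pair exceeded 0.1. Libraries of other numbers gave r of -0.246 to 0.156 there, so the ranges overlapped, and 4 of the 6 libraries were most like their own number. In WT, r was also positive for every pair in microglia against astrocytes (0.0135 to 0.321) and in neurons against microglia (0.0142 to 0.247). The lowest r of same-numbered libraries was negative in every other comparison. The main fits between fractions were not paired, and the replicate block was an alternative. P-values measure the spread between 3 mice per genotype, of both sexes.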

Additional observations from a re-analysis of the deposited data

How the results depend on the processing

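Of 1302 values of a kind under an alternative, 1056 kept their direction and their side of the threshold, 131 changed sign without passing in either fit, 62 lost and 38 gained significance, and 15 reversed. All reversals but 1 came from scaling on mature microRNAs, which shifts the median of all features: U12 for KIN against WT in astrocytes (-0.12); U2 (1.34), U5 (0.93) and U73 (1.99) for neurons against astrocytes in WT; U11 (1.59), U5 (0.015) and U73 (0.82) for neurons against microglia in WT; U11 (2.59), U2 (1.89) and U5 (2.04) for neurons against astrocytes in KIN; and U11 (1.81), U2 (1.30), U5 (1.00) and U73 (1.35) for neurons against microglia in KIN. The other was U5 for microglia against astrocytes in WT (-0.089), scaled on other snRNA rows, a scaling chosen after seeing the data. Why they reversed beyond the shift was not tested.

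Counts of called kinds also moved. Under the microRNA scaling they were 1 for KIN against WT in astrocytes (also for single rows), 2, 6 and 4 in WT and 3, 7 and 6 in KIN for microglia against astrocytes, neurons against astrocytes and neurons against microglia. Neurons against astrocytes in WT called 1 with library totals, with similar snRNA rows and with similar rows of any type. Neurons against microglia in KIN called 0 with library totals, DESeq2, 1 fit of all libraries and both sums, and in WT 2 when scaled on other snRNA rows. Leaving out 1 library gave 1 to 2 for microglia against astrocytes in WT and KIN and for both WT comparisons of neurons, and 0 to 1 for neurons against microglia in KIN.

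The difference in member share (percentage points, KIN minus WT) was 0.203 in astrocytes with similar rows of any type. In microglia it was -0.0552 over noncoding counts, with overlap, -0.202 with similar snRNA rows and -0.320 with rows of any type, and in neurons 0.245 and 0.301 for those sums. The log2 minor-to-major difference in astrocytes was 0.27 with U5 in the major sum and -0.13 with rows of any type. Leaving out 1 library gave shares of -0.0348 to -0.000227 in astrocytes, -0.125 to -0.0882 in microglia and 0.0367 to 0.136 in neurons, and ratios of 0.12 to 0.21, -0.32 to 0.27 and -0.45 to 0.13.

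The replicate block moved 4 values of a kind across the threshold of adjusted p. U2 for neurons against astrocytes in WT (-0.84) and U3 for microglia against astrocytes in WT (0.52) passed with it, and U73 for neurons against microglia in WT (-0.87) and U5 for microglia against astrocytes in KIN (0.34) did not. It moved no other value of a kind across that threshold. Depth limits the neuron fraction most, where 1 CPM is 1.21 counts in the shallowest library, and U6 with 10 counts could not be tested.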
